A study of Rattus norvegicus with 30 samples.

Results

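The genes described here are induced by type I interferons, the antiviral cytokines of the interferon alpha and beta family, and were followed in rat microglia after stroke. A list of 52 gene symbols was matched to the platform's annotation, and 47 of them had a probe set. The list, like the marker and pathway lists below, was chosen with earlier results of these data known. Its counts beside the shares of all genes are therefore a description and no independent test. A gene with more than 1 probe set was read from the one with the highest mean over the 30 arrays, which applied to Lgals9 alone. No probe set was listed for Rigi, Parp14, Xaf1, Samhd1 or Pml, which were not analysed here. The probe set of Ifi44l exceeded the 30th percentile on only 1 of 30 arrays and was not tested, so that 46 genes remained among the 11675 tested.

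Microglia are the resident macrophages of the brain. They came from male rats whose middle cerebral artery had been closed with a filament for a time and then reopened, a model of ischaemic stroke, or from sham rats. Each of 10 groups had 3 arrays: ipsilateral (injured) and contralateral (opposite) hemisphere at 12 months of age and day 14 after stroke, both hemispheres at 12 months and day 3, sham at 12 months, and the same 5 groups at 3 months. The labels contradict each other on the strain: the sample characteristics give Wistar Kyoto, the protocols spontaneously hypertensive rats. No group carried a transgene or drug, and all rats had the same strain labels. The hemisphere of the sham samples and the way the microglia were isolated are not given in the sources used here. The study asked how microglial expression moves between the days after stroke and whether this differs between the ages.

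Type I interferons bind a shared receptor present on nearly every cell, and the kinases Jak1 and Tyk2 then activate transcription factors, Stat2 among them. Stat2 and Irf9 belong to a complex that binds a short promoter element, the interferon-stimulated response element, and switches on a large set of genes. The products sense foreign nucleic acid, block viral entry, translation and assembly, or, as Usp18 does, dampen the signal. Microglia are known to switch on such genes after injury, in ageing and in neurodegeneration as well as in infection.

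Promoters of 40 of the 52 genes were present in RefSeq's table for the GRCr8 assembly, as windows that run 250 bases before to 50 bases after a transcript start. The core of the response element was searched as GAAA, any 2 bases and GAAA again, on either strand, so that it appears either so or as TTTC, any 2 bases and TTTC. It was found in 26 of the 40 genes (65.0%), against 3.92% of all 33469 windows. Of the 19 genes that rose in the injured hemisphere on day 14 at both ages, 8 of 12 with a window held it, and so did 14 of 23 other tested genes with a window. A match is a description of letters and not a measured binding site, and elements outside the windows were not searched. Of the 41 windows of the 40 genes, 17 were placed at the start that RefSeq's gene list gives for the gene. Below, 5 windows belong to genes that rose on day 14 at both ages and 3 to genes called higher in none of the 4 comparisons of the hemispheres, to show that both kinds carry the same element. They are written 5′ to 3′ on the gene's strand, with the matched letters in capitals.
The window of Irf7 lies at chr1:205800053-205800112 on the minus strand, that of Ifi27 at chr6:128355208-128355267 on the plus strand, that of Oas1a at chr12:41330405-41330464 on the plus strand, that of Ifit3 at chr1:241527262-241527321 on the plus strand and that of Lgals3bp at chr10:104127859-104127918 on the minus strand.
The window of Isg20 lies at chr1:142239947-142240006 on the plus strand, that of Igtp at chr10:42874924-42874983 on the plus strand and that of Trim21 at chr1:166399350-166399409 on the minus strand.
Irf7: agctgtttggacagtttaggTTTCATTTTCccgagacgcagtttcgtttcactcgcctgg
Ifi27: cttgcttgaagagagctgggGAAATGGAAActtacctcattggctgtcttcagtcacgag
Oas1a: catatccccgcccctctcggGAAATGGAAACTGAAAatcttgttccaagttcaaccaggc
Ifit3: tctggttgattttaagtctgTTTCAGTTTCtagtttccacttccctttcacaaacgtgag
Lgals3bp: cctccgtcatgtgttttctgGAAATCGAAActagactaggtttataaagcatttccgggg
Isg20: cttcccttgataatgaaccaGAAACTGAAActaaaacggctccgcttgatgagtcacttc
Igtp: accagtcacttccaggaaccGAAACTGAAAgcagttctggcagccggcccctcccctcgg
Trim21: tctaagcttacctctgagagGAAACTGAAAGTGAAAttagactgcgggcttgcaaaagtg
In Oas1a and in Trim21 the element occurs in 2 overlapping copies, which join into 1 longer run of capitals. Ifi27 also held 2 matches, and its window was placed on the one nearer the transcript start. The other, at -169 from the start, lies outside the printed window. The windows of Mx1, Irf9, Oasl and Trim25, which rose on day 14 at both ages, held no match.

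Expression is given as log2 signal after the authors' RMA normalization, so that a difference of 1 is a 2-fold difference. Levels are not set against each other between genes, since probe sets differ in brightness. Differences are group means of 3 arrays each, with the standard error of limma's model over all 30 arrays, and a gene was called at a Benjamini-Hochberg adjusted p under 0.05 over the 11675 genes. Some facts of the arrays as a whole bear on what follows. Signal spread less on the arrays of 3-month stroke rats, whose SD over probe sets was 1.79 to 1.93, than on all others, where it was 1.94 to 2.05. The sample codes carry 1 of 4 numbers of unstated meaning: the 3-month day 3, 3-month day 14 and 3-month sham samples have a number each and the 12-month samples share another. Both hemispheres of an age and day share the number. It cannot be told apart from the group when 3-month rats are set against sham or 1 day against the other, nor from age in sham. In RNA pooled from many cells, fewer cells of a type and less RNA per cell cannot be told apart either.

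Between the hemispheres, Ifitm1, Mx1, Mx2, Lgals3bp, Irf7 and Zbp1 rose most at 12 months and day 14, and at 3 months Usp18, as fitted, stood among the first 6 in place of Zbp1. At 12 months and day 14, 20 of 46 were higher in the injured hemisphere and 1 lower, beside 10.9% and 5.94% of all genes tested. At 3 months and day 14, 24 were higher and 0 lower, beside 13.2% and 7.09% of all genes, and no member was lower even at an unadjusted p under 0.05 in limma. On day 3 at 12 months, 13 were higher and 3 lower, where 18.7% and 10.0% of all genes were called. On day 3 at 3 months, 15 were higher and 2 lower, where 11.5% and 8.95% were called. The median difference over the 46 genes was 0.32 and 0.36 on day 14 at 12 and 3 months, and 0.21 and 0.20 on day 3, while the median over all genes was -0.01 in each. As shares of the 46 genes, the higher calls came to 43.5% and 52.2% on day 14 and to 28.3% and 32.6% on day 3, in the same order of ages.

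Among the 46 genes, 6 rose in all 4 comparisons of the hemispheres: Ifitm1, Lgals3bp, Mx1, Zbp1, Gbp2 and Ifitm3. Another 10 rose in 3 comparisons with no fall, 15 were called in none, and 3 were called only lower: Irf1 and Herc6 on day 3 at both ages, and Trim21 on day 3 at 12 months. Over the 46 genes, the mean log2 signal of an array was 6.80 to 6.91 in the injured hemisphere and 6.33 to 6.47 in the opposite one at 12 months and day 14. It was 6.62 to 6.68 against 6.26 to 6.40 at 12 months and day 3, and 6.28 to 6.46 in sham. At 3 months it was 6.68 to 6.81 against 6.23 to 6.24 on day 14, 6.37 to 6.50 against 6.03 to 6.15 on day 3, and 6.44 to 6.75 in sham. The injured hemisphere lay above the opposite one without overlap in all 4 settings, and at 3 months the opposite hemisphere lay below sham. The mean over all genes tested was also separate at 12 months and day 3, at 6.35 to 6.38 against 6.30 to 6.31. In the other settings its hemispheres overlapped. At 3 months it too lay below sham (6.27 to 6.29) in the opposite hemisphere, at 6.17 to 6.21 on day 14 and 6.09 to 6.16 on day 3.

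**Figure D1:**
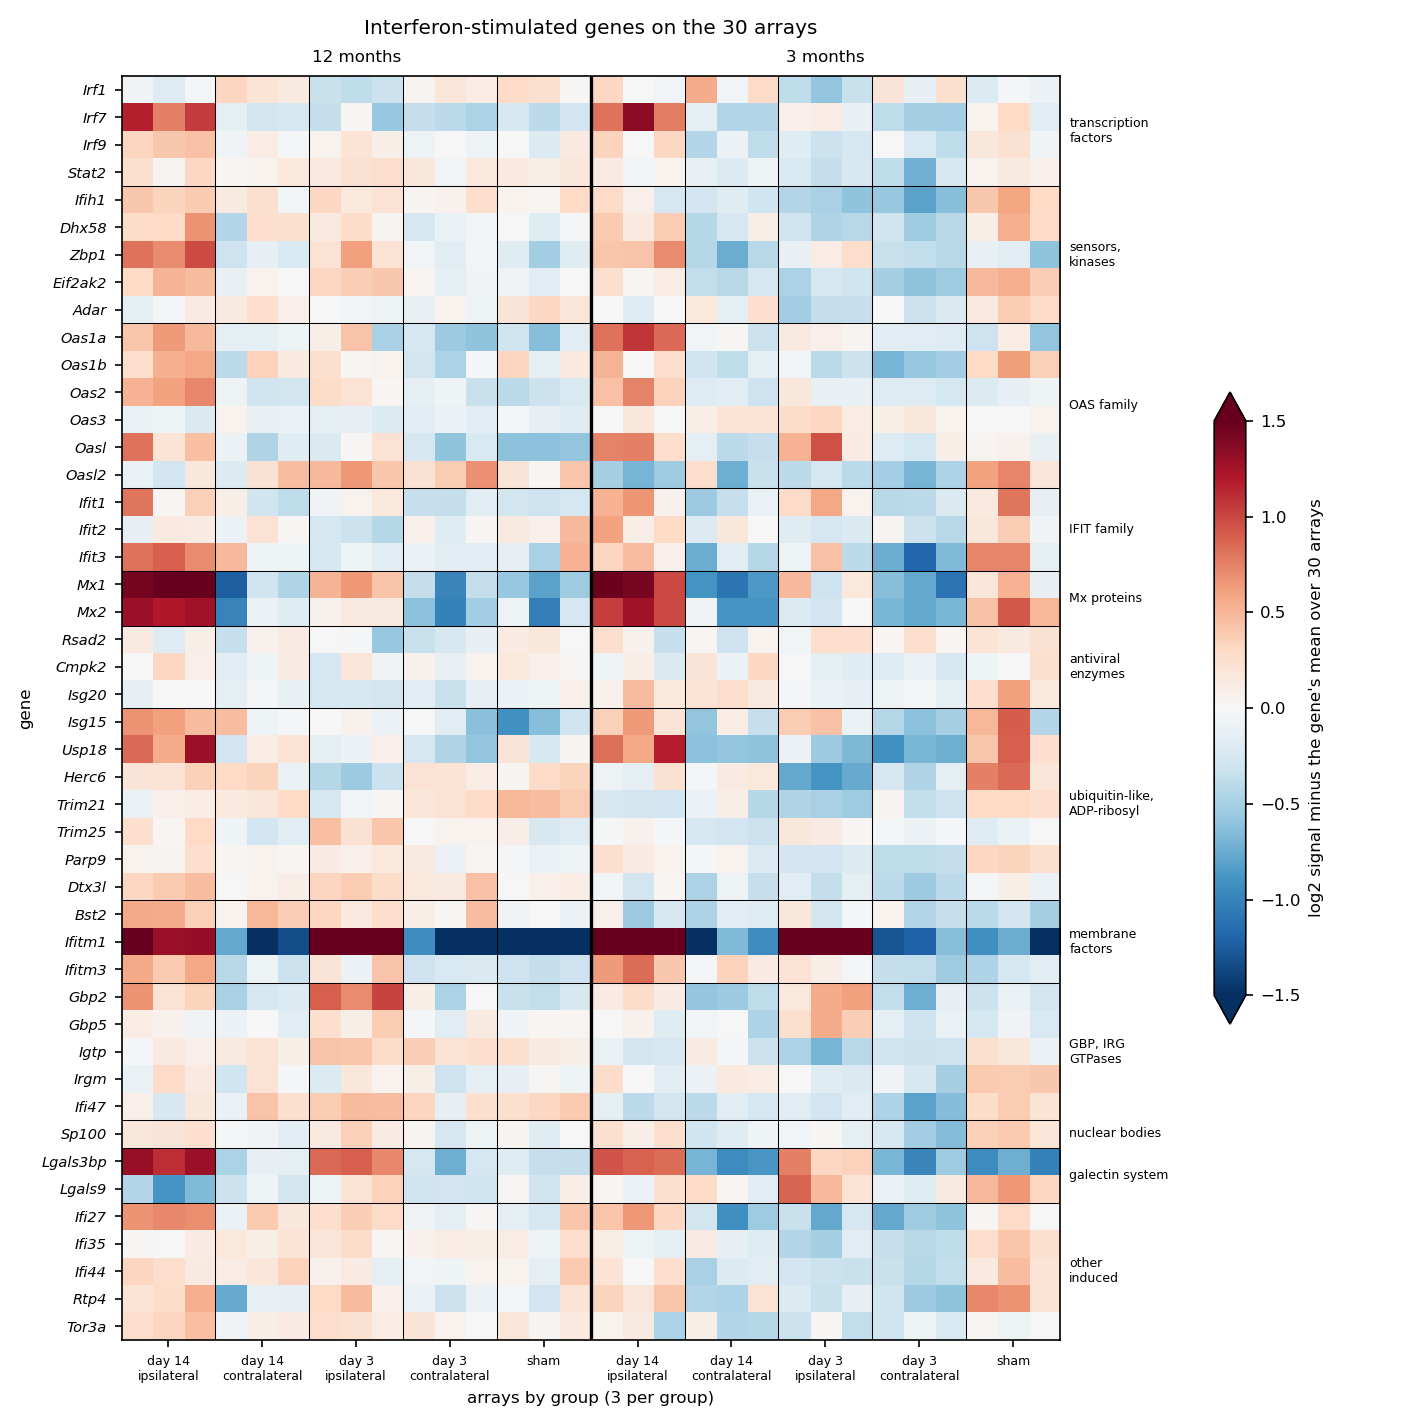
Heat map of the 46 tested genes (rows, grouped by role) on the 30 arrays (columns, 3 per group), as log2 signal minus the gene's mean over all arrays; the colour scale is cut at -1.5 and 1.5. Mx1, Mx2, Irf7 and Lgals3bp are high in both day 14 ipsilateral groups, Ifitm1 is high in all 4 ipsilateral groups, and many genes are low in the 3-month contralateral groups beside 3-month sham.

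Marker lists of microglia and of other cells were read between the hemispheres too. Of all genes, 10.9% and 18.7% were called higher at 12 months on days 14 and 3, and 13.2% and 11.5% at 3 months. Lower were 5.94% and 10.0% at 12 months and 7.09% and 8.95% at 3 months, in the same order of days. The counts below are to be read beside these shares. Of 15 microglial genes 8, 10, 8 and 9 were lower at 12 months on days 14 and 3 and at 3 months on days 14 and 3. Their mean log2 signal at 12 months and day 14 was 9.81 to 9.98 on the ipsilateral and 10.28 to 10.35 on the contralateral arrays. On day 3 it was 9.90 to 10.04 against 10.34 to 10.49. At 3 months it was 9.65 to 9.86 against 10.02 to 10.06 on day 14. The 3-month values of day 3 were 9.67 to 9.87 against 10.16 to 10.24. The injured side thus lay lower without overlap at both ages and days. Of 13 genes of infiltrating monocytes and macrophages, 12 and 13 were higher on day 3 (12 and 3 months) and 5 and 5 on day 14. The mean log2 signal of that list was 6.42 to 6.80 at 12 months and 6.51 to 6.63 at 3 months on the day 14 ipsilateral arrays. On the day 3 ipsilateral arrays it was 7.33 to 7.53 and 7.00 to 8.04, and on all contralateral and sham arrays 6.06 to 6.37. Of 6 border macrophage genes, 3, 6, 3 and 5 were higher at 12 months on days 14 and 3 and at 3 months on days 14 and 3. Of 10 T and NK cell genes at most 2 were higher, and Cd3g, Klrd1, Prf1 and Gzma lay at or below the 30th percentile on every array. Of 12 neutrophil genes, 0 and 1 were higher at 12 months on days 14 and 3 and 1 and 4 at 3 months, and 1, 0, 3 and 0 were lower. The neutrophil mean was 5.05 to 5.36 on the ipsilateral and 5.43 to 5.81 on the contralateral arrays at 12 months and day 14, and 5.55 to 5.91 against 5.36 to 5.46 on day 3. For 3-month rats it was 5.33 to 5.57 against 5.49 to 6.54 on day 14 and 5.91 to 6.49 against 5.26 to 5.78 on day 3. It was thus lower on the injured side at 12 months and day 14, higher on day 3 at both ages, and overlapped at 3 months and day 14. Of 5 genes of B and plasmacytoid dendritic cells, 1 was higher in each comparison except at 3 months and day 14. Their mean was 6.81 to 6.88 against 6.67 to 6.77 at 12 months and day 14, and the hemispheres overlapped at 3 months and day 14. On day 3 it was 6.88 to 7.00 against 6.66 to 6.80 at 12 months, without overlap. At 3 months and day 3 it was 7.049 to 7.196 against 6.876 to 7.046, separate by a narrow margin. Day 3 ipsilateral arrays therefore lay above day 14 ipsilateral arrays for the monocyte list at both ages, and the part of any of these cells in the interferon results was not tested.

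The Mx proteins, GTPases that trap the nucleocapsids of viruses, include Mx1, which had the largest difference after Ifitm1 on day 14 at both ages. On day 14, Mx1 read 7.41, 7.49 and 7.62 on the ipsilateral arrays of 12-month rats, against 4.74, 5.68 and 5.52 on the contralateral ones. In 3-month rats it read 7.45, 7.40 and 6.97 on the ipsilateral arrays, against 5.07, 4.88 and 5.12 on the contralateral ones. All ipsilateral arrays lay above all contralateral arrays at both ages, by more than 1 log2 unit. On day 3, Mx1 read 6.49, 6.63 and 6.40 on ipsilateral, against 5.61, 4.98 and 5.62 on contralateral arrays at 12 months. At 3 months and day 3 the values were 6.46, 5.66 and 6.13 in the injured and 5.34, 5.21 and 4.86 in the opposite hemisphere. The groups again did not overlap, but the gap was smaller. The difference of Mx1 was 2.19 ± 0.21 (adjusted p = 3.3e-09) at 12 months and day 14, a 4.58-fold rise, and 2.25 ± 0.21 (adjusted p = 2.1e-09) at 3 months and day 14, a 4.75-fold rise. On day 3 it was 1.10 ± 0.21 (adjusted p = 1.2e-04) at 12 months and 0.95 ± 0.21 (adjusted p = 9.1e-04) at 3 months.

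Mx2, the other Mx gene tested, also rose on day 14. It read 7.88, 7.81 and 7.87 on the ipsilateral and 5.60, 6.52 and 6.42 on the contralateral arrays of 12-month rats. At 3 months it read 7.64, 7.86 and 7.60 on the ipsilateral and 6.56, 5.71 and 5.72 on the contralateral arrays. At each age 1 contralateral array stood apart from the other 2, lower at 12 months and higher at 3 months, but none reached the ipsilateral arrays. The difference was 1.67 ± 0.22 (adjusted p = 1.1e-06) at 12 months and 1.70 ± 0.22 (adjusted p = 9.0e-07) at 3 months. On day 3 the ipsilateral arrays of 12-month rats read 6.67, 6.74 and 6.74, against 5.99, 5.59 and 6.09 on the contralateral arrays, a difference of 0.82 ± 0.22 (adjusted p = 0.0044). At 3 months and day 3 Mx2 read 6.40, 6.32 and 6.61 in the injured and 5.92, 5.84 and 5.92 in the opposite hemisphere, without overlap. That difference of 0.55 ± 0.22 was not called (adjusted p = 0.075), though it was in a fit with the animal as a fixed block (0.044) and in a fit to the 6 compared arrays alone (0.0051).

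Of the 4 transcription factors, Irf7 and Irf9 rose on day 14 at both ages and Irf1 fell on day 3 at both ages. Irf7 is the factor that drives the interferon alpha genes and is itself induced by interferon. On day 14 it read 7.01, 6.60 and 6.88 on the ipsilateral and 5.69, 5.56 and 5.58 on the contralateral arrays at 12 months, and on day 3 it read 5.48, 5.86 and 5.27 and 5.48, 5.45 and 5.36 in the same order. In 3-month rats it read 6.65, 7.19 and 6.60 on the ipsilateral and 5.69, 5.40 and 5.40 on the contralateral arrays on day 14. On day 3 at 3 months, Irf7 read 5.92, 5.94 and 5.72 in the injured, against 5.46, 5.34 and 5.33 in the opposite hemisphere. On day 14 the injured hemisphere lay far above the opposite one at both ages, while on day 3 the 12-month groups overlapped. The difference was 1.22 ± 0.14 (adjusted p = 1.7e-07) and 1.32 ± 0.14 (adjusted p = 4.4e-08) on day 14 at 12 and 3 months. On day 3 it was 0.10 ± 0.14 at 12 months (adjusted p = 0.64, not called) and 0.49 ± 0.14 at 3 months (adjusted p = 0.012), a call that ended without ipsilateral replicate 2 (adjusted p = 0.053).

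Irf9, the DNA-binding subunit of the interferon-induced complex, read 8.64, 8.72 and 8.75 on ipsilateral and 8.27, 8.43 and 8.30 on contralateral arrays at 12 months and day 14. In 3-month rats on day 14 it read 8.65, 8.31 and 8.62 in the injured and 7.88, 8.23 and 7.94 in the opposite hemisphere. The differences of 0.37 ± 0.11 (adjusted p = 0.016) and 0.51 ± 0.11 (adjusted p = 9.8e-04) were small beside those of Irf7, with no overlap at either age. The 12-month call of Irf9 ended without contralateral replicate 1 (adjusted p = 0.067) or 3 (0.057) or ipsilateral replicate 3 (0.06). Stat2, its partner in the complex, stood at 0.12 to 0.17 in all 4 comparisons and was not called.

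Irf1 is a related factor known mainly for its induction by interferon gamma. It read 7.73, 7.68 and 7.74 on the ipsilateral, against 8.10, 8.24 and 8.17 on the contralateral arrays at 12 months and day 3. On the injured side, 3-month rats read 7.67, 7.46 and 7.72 on day 3, against 8.25, 7.93 and 8.29 in the opposite one. All ipsilateral arrays lay below all contralateral arrays at both ages, and Irf1 fell by 0.46 ± 0.12 (adjusted p = 0.0042) and 0.54 ± 0.12 (adjusted p = 0.0012). On day 14 it was not called at 12 months (-0.31 ± 0.12, adjusted p = 0.074, and 0.027 with the animal as a fixed block) or 3 months (-0.18 ± 0.12, adjusted p = 0.33).

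Among sensors and kinases, Zbp1 rose in all 4 comparisons and Eif2ak2 in 3. Zbp1 binds nucleic acid in the left-handed Z form and can start necroptotic cell death. It read 6.98, 6.88 and 7.15 on the ipsilateral and 5.87, 6.05 and 5.95 on the contralateral arrays at 12 months and day 14. The younger rats had on day 14 values of 6.58, 6.60 and 6.88 in the injured and 5.75, 5.43 and 5.75 in the opposite hemisphere. All ipsilateral arrays lay above all contralateral arrays at both ages, and the difference was 1.05 ± 0.13 (adjusted p = 5.5e-07) and 1.05 ± 0.13 (adjusted p = 6.9e-07). On day 3, Zbp1 read 6.39, 6.78 and 6.38 on ipsilateral and 6.13, 6.02 and 6.13 on contralateral arrays at 12 months, and 6.06, 6.29 and 6.44 and 5.84, 5.80 and 5.75 at 3 months. Here too no arrays overlapped, with differences of 0.43 ± 0.13 and 0.47 ± 0.13. Both day 3 calls rest on few arrays: at 12 months the adjusted p was 0.12 without ipsilateral replicate 2 and 0.06 without contralateral replicate 2, and at 3 months 0.068 without ipsilateral replicate 3.

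Eif2ak2, the kinase PKR that halts translation when it meets double-stranded RNA, read 7.72, 7.93 and 7.90 on ipsilateral and 7.31, 7.47 and 7.43 on contralateral arrays at 12 months and day 14, a difference of 0.45 ± 0.08 (adjusted p = 2.5e-04). It rose by 0.42 ± 0.08 at 12 months and day 3 and by 0.47 ± 0.08 at 3 months and day 14, and stood at 0.20 ± 0.08 at 3 months and day 3 (adjusted p = 0.093). The sensing pathway also has helicases. Dhx58 (LGP2, which tunes the sensor helicases) rose by 0.50 ± 0.15 at 3 months and day 14 and was not called in the other 3 comparisons (0.40, 0.28 and 0.03). With the animal as a block Dhx58 was called at 12 months and day 14 too (adjusted p = 0.034 fixed, 0.05 random). Ifih1 (MDA5, a sensor of long double-stranded RNA) stood between 0.11 and 0.29 with no call, and Adar, which edits adenosine to inosine in such RNA, between -0.23 and 0.01 with no call.

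The OAS enzymes make short oligoadenylates that activate the ribonuclease RNase L. Of 6 members, 3 rose at 12 months and day 14, 4 at 3 months and day 14, and 2 and 1 on day 3 at 12 and 3 months. Oas1a read 5.66, 5.88 and 5.73 on the ipsilateral and 5.10, 5.10 and 5.17 on the contralateral arrays at 12 months and day 14, and 6.06, 6.32 and 6.10 and 5.21, 5.26 and 4.93 at 3 months and day 14. No arrays overlapped at either age, and Oas1a rose by 0.64 ± 0.16 (adjusted p = 0.0058) and 1.03 ± 0.16 (adjusted p = 2.5e-05). Its values on day 3 at 12 months were 5.33, 5.68 and 4.76 on the ipsilateral and 4.98, 4.71 and 4.64 on the contralateral arrays. The 2 groups overlapped, and the rise of 0.48 ± 0.16 (adjusted p = 0.026) held in 12 of 17 alternative fits, with adjusted p up to 0.24 (without ipsilateral replicate 2).

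Oas2 read 4.94, 5.02 and 5.14 on the ipsilateral and 4.35, 4.13 and 4.15 on the contralateral arrays at 12 months and day 14, a difference of 0.83 ± 0.10 (adjusted p = 4.6e-07). At 3 months and day 14 the injured hemisphere read 4.86, 5.16 and 4.77 and the opposite one 4.23, 4.26 and 4.11, the contralateral arrays none of them above the 30th percentile. Oas2 therefore rose by at least 0.64 there (0.73 ± 0.10 as fitted, adjusted p = 3.8e-06). It also rose at 12 months and day 3, by 0.35 ± 0.10, a call that ended without ipsilateral replicate 1 (adjusted p = 0.062) or contralateral replicate 3 (0.081). Oasl, whose human form is known to lack the enzyme activity, rose by 0.74 ± 0.17 (adjusted p = 0.0021) and 0.88 ± 0.17 (adjusted p = 2.9e-04) on day 14 at 12 and 3 months and by 0.66 ± 0.17 at 3 months and day 3. Without ipsilateral replicate 2 the last of these had an adjusted p of 0.072. Oas1b rose by 0.53 ± 0.16 as fitted (adjusted p = 0.016) at 3 months and day 14, with 2 of the 3 contralateral arrays at or below the 30th percentile. It stood at 0.42 and 0.36 at 12 months on days 14 and 3 with no call. With the animal as a fixed block it was called there on day 14 (adjusted p = 0.029, and 0.049 with a random block) and on day 3 (0.042, fixed block). No contralateral array of Oas1b at 3 months and day 3 exceeded the 30th percentile, and no difference is given. Oas3 (between -0.12 and 0.13) and Oasl2 (between -0.31 and 0.20) were called in none of the 4 comparisons. Oas1a and Oas1b, like the Ifit, Ifitm, Gbp and Irg genes below, have close relatives in the genome, and how far probes are shared among them was not tested.

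The Ifit proteins bind viral RNA that lacks the marks of host RNA. Ifit3 read 6.93, 7.02 and 6.83 on the ipsilateral and 6.61, 6.06 and 6.06 on the contralateral arrays at 12 months and day 14. Its 3-month values on day 14 were 6.44, 6.58 and 6.20 in the injured and 5.38, 5.95 and 5.69 in the opposite hemisphere. The groups did not overlap, but the contralateral arrays were spread widely at both ages, and the differences were 0.68 ± 0.22 (adjusted p = 0.032) and 0.73 ± 0.22 (adjusted p = 0.018). On day 3, Ifit3 read 6.05, 6.56 and 5.73 in the injured and 5.38, 4.93 and 5.45 in the opposite hemisphere at 3 months, a rise of 0.86 ± 0.22 (adjusted p = 0.0054), and stood at -0.02 ± 0.22 at 12 months. The 12-month day 14 call held in 10 of 17 alternative fits, with adjusted p up to 0.13 (without contralateral replicate 3), and the 3-month day 3 call ended without ipsilateral replicate 2 (0.065). Ifit1 rose by 0.60 ± 0.19 and 0.74 ± 0.19 on day 14 at 12 and 3 months and by 0.65 ± 0.19 at 3 months and day 3, and its 12-month call held in 12 of 17 alternative fits (adjusted p up to 0.23, without ipsilateral replicate 1). Ifit2 was called in none of the comparisons between hemispheres, at 0.00 and 0.34 on day 14 and -0.31 and 0.02 on day 3 (12 and 3 months).

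The antiviral enzymes outside the OAS family, Rsad2, Cmpk2 and Isg20, were not called between hemispheres in either direction at either age and day. Rsad2 (viperin, which makes a chain-terminating nucleotide) read 4.31, 3.98 and 4.27 on the ipsilateral and 3.83, 4.24 and 4.30 on the contralateral arrays at 12 months and day 14, and 4.43, 4.24 and 3.83 and 4.21, 3.86 and 4.22 at 3 months and day 14. These ranges overlapped and lay near the arrays' 30th percentile of 4.07 to 4.35. Its difference was 0.06 at 12 months and day 14 and 0.06 at 3 months and day 3. In the other 2 comparisons no contralateral array exceeded that percentile, and no difference is given. Cmpk2, the nucleotide kinase encoded beside Rsad2 in mammals, stood between -0.20 and 0.17, and Isg20, an exonuclease that degrades RNA, between -0.05 and 0.04. In limma 0 of these 3 genes had an unadjusted p under 0.05, in either direction, in any of the 4 comparisons. The promoter window of Isg20 printed above carries the response element.

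Of the genes for Isg15 conjugation and related protein marks, Usp18 rose on day 14 at both ages and Herc6 fell on day 3 at both ages. Usp18 cleaves Isg15 from proteins and shields the interferon receptor from further signalling. It read 4.86, 4.56 and 5.29 on the ipsilateral and 3.71, 4.12 and 4.22 on the contralateral arrays at 12 months and day 14, without overlap. The difference was 0.89 ± 0.18 as fitted (adjusted p = 5.0e-04), with 2 of the 3 contralateral arrays at or below the 30th percentile. On the injured side, 3-month rats read 4.83, 4.58 and 5.18 on day 14, against 3.39, 3.42 and 3.40 in the opposite one, where no array exceeded the 30th percentile. Usp18 rose by at least 0.57 there (1.46 ± 0.18 as fitted, adjusted p = 4.2e-07). On day 3 it read 3.87, 3.91 and 4.08 on the ipsilateral and 3.75, 3.56 and 3.41 on the contralateral arrays at 12 months, and 3.92, 3.46 and 3.33 and 3.10, 3.32 and 3.28 at 3 months. No contralateral array exceeded the 30th percentile at either age, nor did any 3-month ipsilateral array, so that no fold is given. It was not called at 12 months (adjusted p = 0.11) or at 3 months (0.2).

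Isg15, the ubiquitin-like protein itself, read 6.89, 7.16 and 6.74 on the ipsilateral and 5.94, 6.65 and 6.19 on the contralateral arrays at 3 months and day 14. On day 3 at 3 months it read 6.91, 6.97 and 6.43 in the injured and 6.10, 5.92 and 6.04 in the opposite hemisphere. The ranges were separate on both days, with rises of 0.67 ± 0.23 (adjusted p = 0.036) and 0.75 ± 0.23 (adjusted p = 0.017). The day 3 call held in 14 of 17 alternative fits, with adjusted p of 0.061 without contralateral replicate 2 and 0.073 or 0.083 without ipsilateral replicate 1 or 2. At 12 months Isg15 stood at 0.47 ± 0.23 on day 14 and 0.25 ± 0.23 on day 3 and was not called (adjusted p = 0.18 and 0.46), though with the animal as a fixed block it was called on day 14 (0.023).

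Herc6, the ligase that attaches Isg15 in mice, read 5.78, 5.66 and 5.89 on the ipsilateral and 6.42, 6.41 and 6.32 on the contralateral arrays at 12 months and day 3. At 3 months and day 3 it read 5.44, 5.31 and 5.45 in the injured and 5.95, 5.76 and 6.08 in the opposite hemisphere. Every ipsilateral array lay below every contralateral array, and Herc6 fell by 0.61 ± 0.14 (adjusted p = 8.6e-04) and 0.53 ± 0.14 (adjusted p = 0.0048). On day 14, Herc6 read 6.40, 6.41 and 6.56 on the ipsilateral and 6.50, 6.54 and 6.10 on the contralateral arrays at 12 months, and 6.13, 6.07 and 6.44 and 6.18, 6.33 and 6.37 at 3 months. Here its groups overlapped, at 0.07 ± 0.14 at 12 months and -0.08 ± 0.14 at 3 months, with no call. Trim21, a ubiquitin ligase that binds antibodies inside cells, read 6.16, 6.36 and 6.42 on the ipsilateral and 6.58, 6.62 and 6.69 on the contralateral arrays at 12 months and day 3. It fell there by 0.32 ± 0.11 (adjusted p = 0.024), which held in 13 of 17 alternative fits, with adjusted p up to 0.15 (without ipsilateral replicate 1), and stood between -0.28 and -0.13 with no call in the other 3 comparisons. Trim25, a ubiquitin ligase of the RNA sensing pathway, rose by 0.37, 0.32 and 0.30 at 12 months on days 14 and 3 and at 3 months on day 14. Dtx3l rose by 0.34 ± 0.10 at 12 months and day 14, and its partner Parp9, an ADP-ribosyl reader, was not called (between 0.08 and 0.20).

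Ifitm1, a membrane protein that hinders fusion of viruses with the cell, had the largest difference of the 46 genes in all 4 comparisons. At 12 months it read 9.0, 8.22 and 8.24 on the ipsilateral and 6.15, 5.17 and 5.59 on the contralateral arrays on day 14. Its values at 12 months on day 3 were 8.52, 8.46 and 9.24 in the injured and 5.99, 5.38 and 5.26 in the opposite hemisphere. The injured hemisphere was higher by more than 2 log2 units on every array pair at that age. At 3 months it read 8.76, 9.32 and 8.71 on the ipsilateral and 4.94, 6.26 and 5.99 on the contralateral arrays on day 14. The 3-month values on day 3 were 10.68, 9.68 and 8.51 in the injured and 5.63, 5.71 and 6.28 in the opposite hemisphere. The 3-month day 3 ipsilateral arrays were the most scattered (9.62 ± 1.08, mean and SD, n = 3), and still none met the contralateral arrays. Ifitm1 rose by 2.86 ± 0.41 (adjusted p = 5.9e-06) and 3.20 ± 0.41 (adjusted p = 9.9e-07) on day 14 at 12 and 3 months, and by 3.19 ± 0.41 (adjusted p = 5.6e-07) and 3.75 ± 0.41 (adjusted p = 7.3e-08) on day 3, which is 13.4-fold in the last case. Unlike Mx1 it was not higher on day 14 than on day 3 in the injured hemisphere (-0.25 ± 0.41 at 12 months and -0.69 ± 0.41 at 3 months, adjusted p = 0.74 and 0.22). The mean of the monocyte and macrophage list was 6.42 to 8.04 log2 on the ipsilateral arrays, against 6.06 to 6.37 on all contralateral and sham arrays, and the part of these cells in the values of Ifitm1 was not tested.

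Ifitm3, its relative in late endosomes, rose by 0.78 ± 0.12 (adjusted p = 1.7e-05) and 0.43 ± 0.12 at 12 months on days 14 and 3 and by 0.48 ± 0.12 at 3 months and day 14. At 3 months and day 3 no contralateral array exceeded the 30th percentile, and the rise was at least 0.38 (0.52 ± 0.12 as fitted). Bst2 (tetherin, which holds budding viruses at the cell surface) stood between 0.03 and 0.20 and was not called.

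Of the GTPases that attack the vacuoles of intracellular microbes, Gbp2 rose in all 4 comparisons. It read 7.85, 7.40 and 7.52 on the ipsilateral and 6.70, 6.93 and 6.98 on the contralateral arrays at 12 months and day 14, and 8.09, 7.89 and 8.20 and 7.27, 6.71 and 7.18 on day 3. In 3-month rats it read 7.31, 7.46 and 7.31 in the injured and 6.60, 6.63 and 6.81 in the opposite hemisphere on day 14, and 7.35, 7.74 and 7.80 and 6.82, 6.45 and 7.06 on day 3. The groups did not overlap in any of the 4 settings, and the 12-month ipsilateral arrays of day 3 were the highest. Gbp2 rose by 0.72 ± 0.15 (adjusted p = 5.6e-04) on day 14 and 1.00 ± 0.15 (adjusted p = 4.0e-06) on day 3 at 12 months, and by 0.68 ± 0.15 (adjusted p = 0.001) and 0.85 ± 0.15 (adjusted p = 6.3e-05) at 3 months. Gbp5 rose by 0.57 ± 0.11 (adjusted p = 2.7e-04) at 3 months and day 3, where its arrays read 6.69, 7.01 and 6.83 on the ipsilateral and 6.32, 6.14 and 6.36 on the contralateral side, and was not called elsewhere (0.12, 0.26 and 0.13). Ifi47 rose by 0.44 ± 0.12 in the same comparison, a call that ended without contralateral replicate 2 (adjusted p = 0.069). Igtp (between -0.22 and 0.09) and Irgm (between -0.02 and 0.14) were called in none. Counted with Irf1, these are the 6 genes best known for induction by interferon gamma, of which 1 rose on day 14 at each age, where 10.9% (12 months) and 13.2% (3 months) of all genes did. On day 3, 1 rose at 12 months and 3 at 3 months, where 18.7% and 11.5% of all genes did, and 1 fell at each age. With 6 genes these counts are a description, and the group was not tested between the days. Their median difference was 0.02 and 0.00 on day 14 and 0.19 and 0.28 on day 3 at 12 and 3 months.

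Lgals3bp, a secreted glycoprotein that binds galectins, rose at both ages and days. It read 9.63, 9.43 and 9.62 on the ipsilateral and 7.85, 8.20 and 8.18 on the contralateral arrays at 12 months and day 14, and 9.26, 9.21 and 9.16 and 7.63, 7.38 and 7.45 at 3 months and day 14. On day 3 it read 9.18, 9.22 and 9.04 in the injured and 8.06, 7.59 and 8.07 in the opposite hemisphere at 12 months, and 9.07, 8.63 and 8.67 and 7.63, 7.33 and 7.78 at 3 months. Every ipsilateral array was higher than every contralateral array in all 4 settings. Lgals3bp rose by 1.48 ± 0.13 (adjusted p = 1.1e-09) on day 14 and 1.24 ± 0.13 (adjusted p = 1.9e-08) on day 3 at 12 months, and by 1.72 ± 0.13 (adjusted p = 4.6e-11) and 1.21 ± 0.13 (adjusted p = 6.7e-08) at 3 months, and these calls held in every alternative fit.

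Lgals9 (galectin-9, a sugar-binding protein that acts on T cells) was the member called in opposite directions. At 12 months it read 6.36, 5.90 and 6.13 on the ipsilateral and 6.47, 6.73 and 6.52 on the contralateral arrays on day 14, and 6.73, 7.00 and 7.14 and 6.49, 6.50 and 6.49 on day 3. The injured hemisphere lay lower on day 14 and higher on day 3, with differences of -0.44 ± 0.15 (adjusted p = 0.039) and 0.46 ± 0.15 (adjusted p = 0.02). At 3 months it rose by 0.57 ± 0.15 (adjusted p = 0.0057) on day 3 and stood at 0.01 ± 0.15 on day 14. With the animal as a fixed block the 12-month day 14 call ended (adjusted p = 0.077). These calls rest on the brighter of its 2 probe sets, and with the mean of both the adjusted p was 0.078 and 0.16 at 12 months on days 14 and 3 and 0.097 at 3 months and day 3.

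Among the remaining genes, Ifi27, a small protein of mitochondria and other membranes, read 9.91, 9.95 and 9.93 on the ipsilateral and 9.13, 9.62 and 9.40 on the contralateral arrays at 12 months and day 14. In 3-month rats on day 14 it read 9.65, 9.88 and 9.55 in the injured and 8.95, 8.32 and 8.70 in the opposite hemisphere, the groups being separate at both ages. Ifi27 rose by 0.55 ± 0.16 (adjusted p = 0.012) and 1.03 ± 0.16 (adjusted p = 1.1e-05), the 12-month call ending without contralateral replicate 1 (adjusted p = 0.1), and was not called on day 3 (0.36 and 0.18). Rtp4, a membrane protein chaperone, rose by 0.67 ± 0.17 and 0.54 ± 0.17 on day 14 at 12 and 3 months, the 12-month call ending without contralateral replicate 1 (0.083). At 12 months and day 3 it was called with the animal as a block (adjusted p = 0.021 fixed, 0.04 random), though not without. Sp100, a component of nuclear bodies, rose by 0.30 ± 0.10 at 12 months and day 3 and by 0.38 ± 0.10 and 0.41 ± 0.10 at 3 months on days 14 and 3, and was called at 12 months and day 14 once the animal was a random block (adjusted p = 0.043). Ifi44 rose by 0.43 ± 0.11 at 3 months and day 14 and was not called in the other 3 comparisons. Ifi35 (between -0.11 and 0.07) and Tor3a, an ATPase of the endoplasmic reticulum (between -0.03 and 0.29), were called in none.

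**Figure D2:**
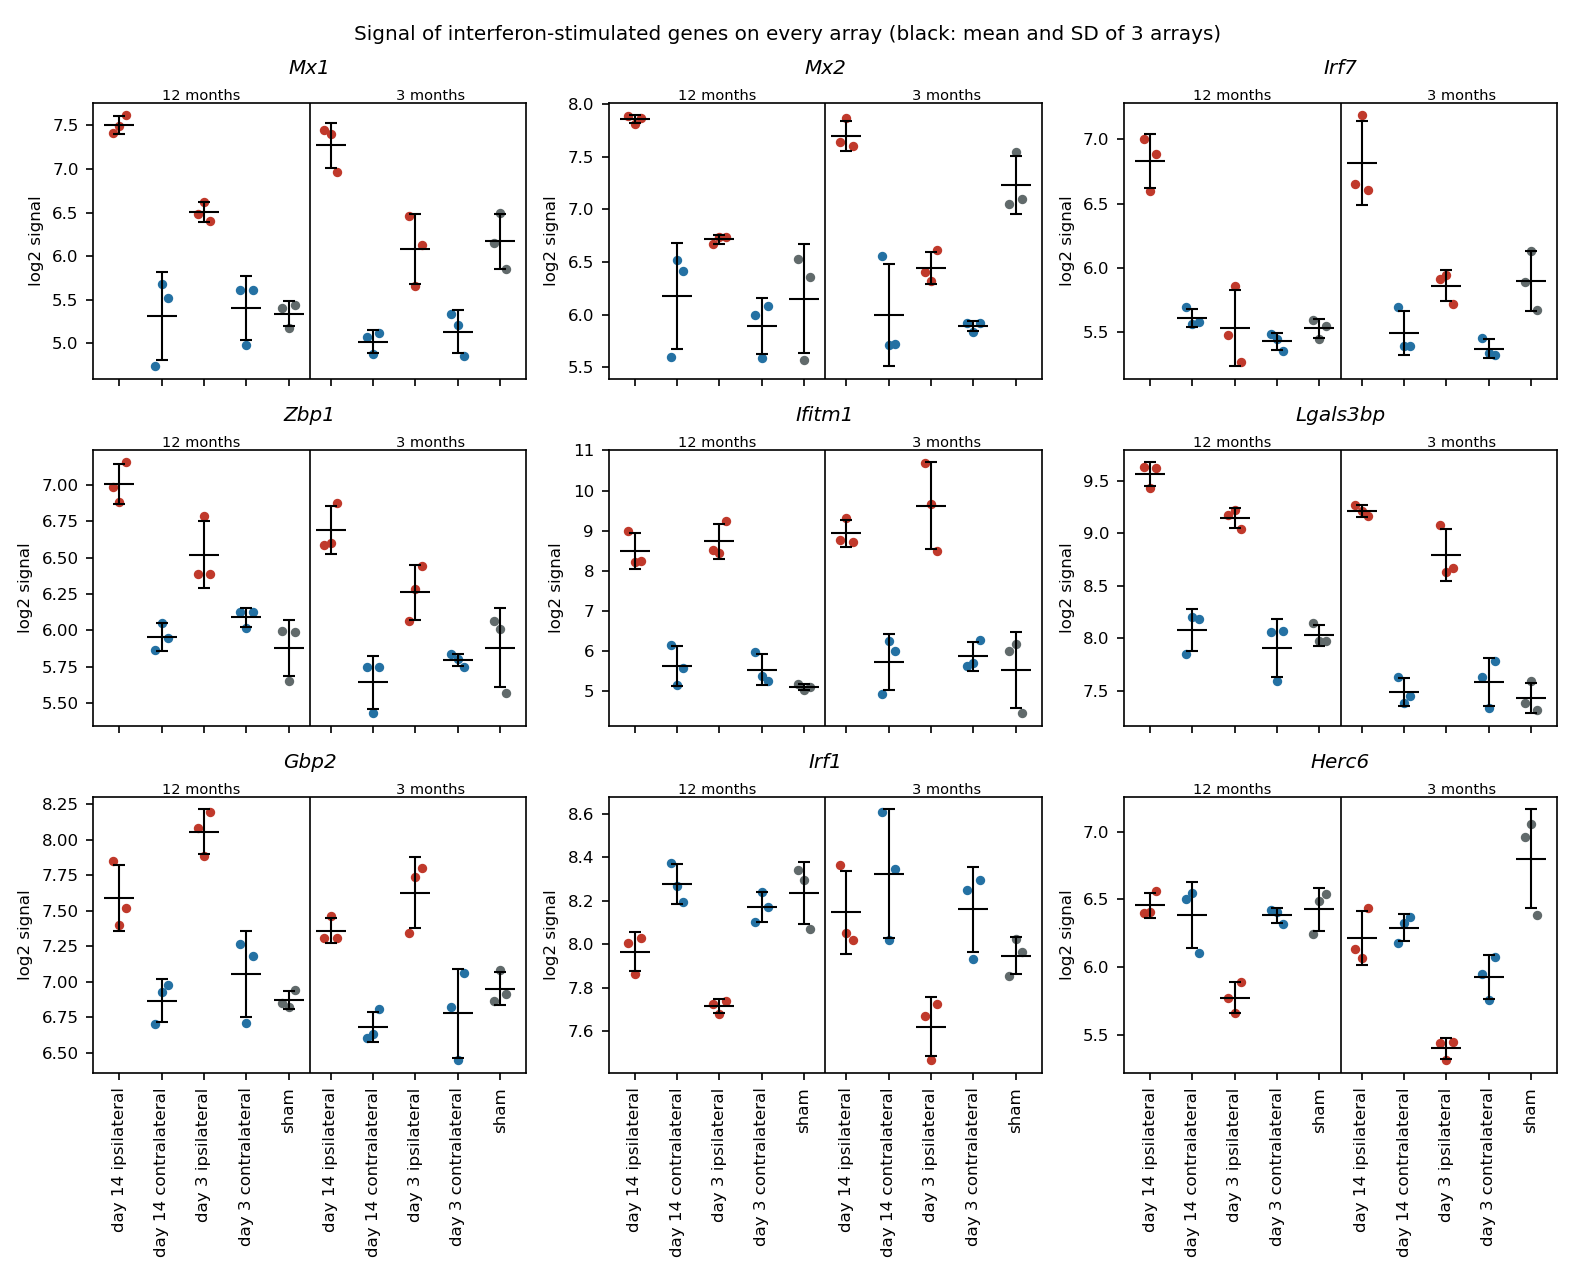
Log2 signal of 9 genes on every array, with the mean and SD of each group's 3 arrays in black; red points are ipsilateral, blue contralateral and grey sham arrays. Mx1, Mx2, Irf7 and Zbp1 have their highest group means in the day 14 ipsilateral groups, Ifitm1 is high in all ipsilateral groups, Gbp2 is at its highest in the 12-month day 3 ipsilateral group, and Irf1 and Herc6 are lowest in the day 3 ipsilateral groups.

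Across the alternative fits, 14 of 21 calls at 12 months and day 14 and 17 of 24 at 3 months and day 14 held in every one, against 8 of 16 and 9 of 17 on day 3. Irf7, Mx1, Mx2, Usp18, Zbp1, Oas1a, Oas2, Oasl, Eif2ak2, Gbp2, Ifitm1, Ifitm3 and Lgals3bp held on day 14 at both ages. Usp18 and Oas2 did so in the fits that included them, since both were too dim for the stricter filter.

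Whether the hemisphere effect differed between the days was tested as the difference of the differences, in which a shift common to both hemispheres cancels. At 12 months 5 genes had a larger effect on day 14 than on day 3 and 1 a smaller one, beside 1.75% and 3.59% of all genes. At 3 months the numbers were 7 and 0, beside 2.57% and 1.24%, with 4 lower at an unadjusted p under 0.05 in limma. After quantile normalization of the arrays, 2 genes were called larger and 1 smaller at 12 months. The median over the 46 genes was 0.14 at 12 months and 0.11 at 3 months, against -0.01 and 0.01 over all genes. At 12 months these genes were Irf7 (1.11 ± 0.20, adjusted p = 5.5e-04), Mx1 (1.10 ± 0.29, adjusted p = 0.021), Herc6 (0.68 ± 0.19, adjusted p = 0.031), Zbp1 (0.62 ± 0.19, adjusted p = 0.045) and Oas2 (0.48 ± 0.14, adjusted p = 0.047), and in the other direction Lgals9 (-0.90 ± 0.21, adjusted p = 0.0078). At 3 months they were Mx1 (1.30 ± 0.29, adjusted p = 0.0086), Mx2 (1.15 ± 0.31, adjusted p = 0.03), Usp18 (1.12 ± 0.25, adjusted p = 0.0086), Ifi27 (0.85 ± 0.22, adjusted p = 0.024), Irf7 (0.83 ± 0.20, adjusted p = 0.014), Irf9 (0.56 ± 0.16, adjusted p = 0.037) and Oas2 (0.53 ± 0.14, adjusted p = 0.035). The values of Usp18 and Oas2 at 3 months are as fitted and are no measured sizes, since in 3 of the 4 groups of Usp18 (all except day 14 ipsilateral) and in both contralateral groups of Oas2 no array exceeded the 30th percentile. Irf7, Mx1 and Oas2 were called at both ages. For Herc6 the injured hemisphere was low on day 3 and level with the opposite one on day 14.

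Of these 13 calls 3 held in every alternative fit. Irf7 at 12 months and Mx1 and Usp18 at 3 months were those 3. Usp18 was too dim for the stricter filter and was not part of that fit. Irf7 at 3 months was lost in a fit to the 12 compared arrays alone (adjusted p = 0.052), and Mx1 at 12 months without contralateral replicate 1 of day 14 (0.086), ipsilateral replicate 3 of day 14 (0.056), contralateral replicate 1 (0.062) or 3 (0.064) of day 3, or ipsilateral replicate 3 of day 3 (0.06). Over all alternative fits the highest adjusted p was 0.12 for Herc6, 0.14 for Zbp1, 0.16 for Oas2 and 0.062 for Lgals9 at 12 months. At 3 months it was 0.085 for Mx2, 0.1 for Ifi27, 0.18 for Irf9 and 0.16 for Oas2. With the animal as a fixed block, Irf9 at 3 months (0.069) and Oas2 at 12 months (0.058) were not called, and Oas1a at 3 months was (0.024 fixed, 0.042 random). The 12-month count of 6 came to 2 without contralateral replicate 1 of day 3 or ipsilateral replicate 3 of day 14, and to 3 without contralateral replicate 2 or ipsilateral replicate 3 of day 3 or contralateral replicate 3 of day 14. The 3-month count of 7 came to 3 without ipsilateral replicate 2 of day 3, and to 4 without contralateral replicate 1 or 3 of day 3 or ipsilateral replicate 1 or 2 of day 14.

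**Figure D3:**
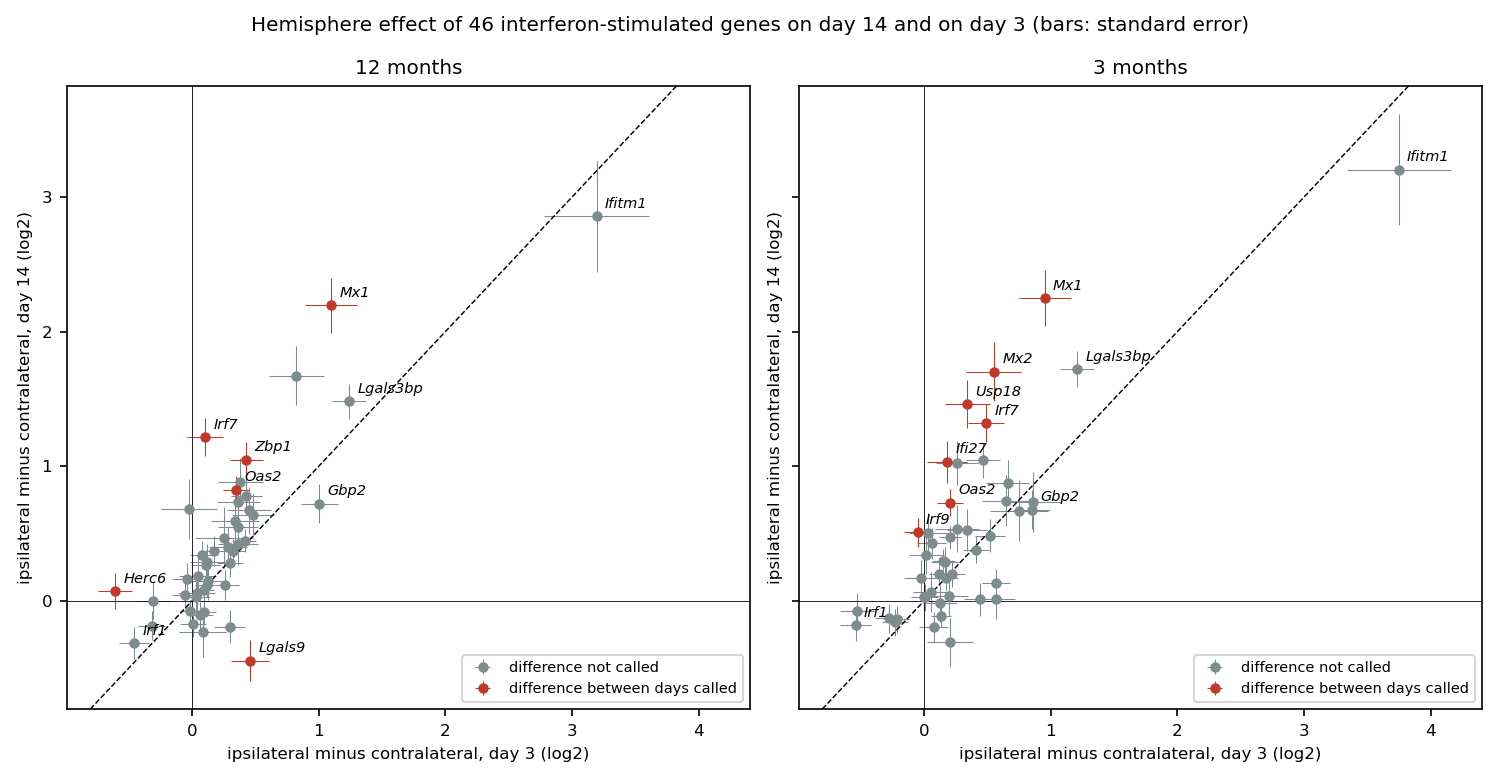
Difference between the hemispheres (ipsilateral minus contralateral, log2) on day 14 (vertical axis) against day 3 (horizontal axis) for the 46 genes at 12 months (left) and 3 months (right), with standard errors as bars and genes whose effect differed between the days in red; the dashed line marks equal effects. Mx1 and Irf7 lie above the line at both ages, Ifitm1 lies far out near it, and Lgals9 lies below it at 12 months.

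In the injured hemisphere itself, day 14 was set against day 3. At 12 months 13 genes were higher on day 14 and 5 lower, beside 6.53% and 14.1% of all genes, with a median of 0.21 against 0.00 for all genes. Irf7 was higher by 1.29 ± 0.14, Mx2 by 1.14 ± 0.22, Mx1 by 1.00 ± 0.21, Ifit3 by 0.96 ± 0.22, Usp18 by 0.95 ± 0.18 and Herc6 by 0.68 ± 0.14. For Usp18 this is as fitted, with 2 of the 3 day 3 arrays at or below the 30th percentile. Ifit3 read 6.93, 7.02 and 6.83 on the ipsilateral arrays of day 14 and 5.88, 6.05 and 5.96 on those of day 3. The arrays of the 2 days did not overlap for any of these 6. Lower on day 14 were Lgals9 (-0.83 ± 0.15) and Oasl2 (-0.59 ± 0.18), and with them 3 of the interferon gamma group, Gbp2 (-0.47 ± 0.15), Ifi47 (-0.44 ± 0.12) and Igtp (-0.31 ± 0.10). With the arrays quantile normalized, 13 were higher and 2 lower. The count of 18 came to 10 without ipsilateral replicate 3 of day 14. Oasl2 read 6.76, 6.57 and 7.03 on day 14 and 7.35, 7.51 and 7.27 on day 3, Ifi47 8.52, 8.19 and 8.61 and 8.82, 8.91 and 8.90, and Igtp 6.07, 6.23 and 6.17 and 6.52, 6.51 and 6.37. At 3 months 26 genes were higher on day 14 and 2 lower, beside 22.0% and 7.51% of all genes, with a median of 0.33 against 0.05. Mx2 was higher by 1.26 ± 0.22, Mx1 by 1.18 ± 0.21, Irf7 by 0.95 ± 0.14, Ifi27 by 0.91 ± 0.16 and Oas1a by 0.82 ± 0.16. Ifi27 read 9.65, 9.88 and 9.55 on the ipsilateral arrays of day 14 and 8.89, 8.46 and 8.98 on those of day 3, and Oas1a 6.06, 6.32 and 6.10 and 5.38, 5.32 and 5.29, each without overlap. Usp18 was higher by at least 0.56 (1.29 ± 0.18 as fitted), since no day 3 array exceeded the 30th percentile. Lgals9 (-0.46 ± 0.15) and Gbp5 (-0.43 ± 0.11) were lower.

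In the opposite hemisphere, day 14 was set against day 3 as well. At 12 months limma called 0 of the 46 genes, where an unadjusted p under 0.05 gave 2 higher and 1 lower, beside 0.137% and 0.925% of all genes called. At 3 months 5 were higher on day 14, beside 8.31% of all genes, and 0 lower (limma, 1 at an unadjusted p under 0.05), beside 1.84%. These were Ifitm3 (at least 0.42, 0.56 ± 0.12 as fitted, with no day 3 array above the 30th percentile), Ifih1 (0.42 ± 0.11), Parp9 (0.32 ± 0.08), Stat2 (0.32 ± 0.10) and Ifi35 (0.32 ± 0.10), none of which held in all alternative fits, and the count of 5 came to 2 without contralateral replicate 2 of day 3 and 3 without contralateral replicate 1 of day 14. After quantile normalization of the arrays, 2 were higher and 1 lower.

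The hemisphere effects of the ages were compared in the same way. Of the 46 genes limma called 0 on day 14 (an unadjusted p under 0.05 gave 1 larger and 4 smaller at 12 months), beside 0% and 0.00857% of all genes. On day 3 it called 0 as well (1 higher and 1 lower unadjusted), beside 1.42% and 0.154%. The day 14 effects stood at 2.19 at 12 months and 2.25 at 3 months for Mx1, 1.22 and 1.32 for Irf7, and 1.05 and 1.05 for Zbp1. The 12 minus 3 month difference of these effects was -0.05 ± 0.29, -0.10 ± 0.20 and 0.00 ± 0.19 for Mx1, Irf7 and Zbp1. On day 3 the widest of the 46 differences between the ages was that of Ifit3 (-0.88 ± 0.32, adjusted p = 0.18).

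The injured hemisphere was also set against sham, where at 3 months the sample code number moves with the group. At 12 months and day 14, 22 were higher in the injured hemisphere than in sham and 2 lower, beside 11.9% and 8.09% of all genes, with a median of 0.32 against -0.01. With the arrays quantile normalized, 21 were higher and 5 lower. On day 3, 13 were higher and 5 lower, beside 22.7% and 14.3%, with a median of 0.22 against -0.03. Mx1 read 7.41, 7.49 and 7.62 on the ipsilateral arrays of day 14 and 6.49, 6.63 and 6.40 on those of day 3, against 5.41, 5.18 and 5.44 in sham. Irf7 read 7.01, 6.60 and 6.88 and 5.48, 5.86 and 5.27 in the injured hemisphere on days 14 and 3, against 5.60, 5.45 and 5.55 in sham. Mx1 lay above sham on every array of both days, Irf7 on those of day 14 and not of day 3. Mx1 rose by 2.17 ± 0.21 (adjusted p = 3.0e-09) on day 14 and 1.16 ± 0.21 (adjusted p = 3.7e-05) on day 3, and Isg15, not called between hemispheres at that age, rose by 1.20 ± 0.23 (adjusted p = 2.0e-04) and 0.61 ± 0.23 (adjusted p = 0.037). Irf7 rose by 1.30 ± 0.14 on day 14 and stood at 0.00 ± 0.14 on day 3. Lgals9 (-0.60 ± 0.15) and Trim21 (-0.42 ± 0.11) fell on day 14, and Herc6 (-0.65 ± 0.14), Ifit2 (-0.57 ± 0.14), Trim21 (-0.54 ± 0.11), Irf1 (-0.52 ± 0.12) and Adar (-0.27 ± 0.10) on day 3.

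The opposite hemisphere was set against sham in the same way. At 12 months limma called 0 of 46 genes on day 14 (an unadjusted p under 0.05 gave 3 higher and 1 lower), beside 0.00857% and 0% of all genes. On day 3 it called 0 (0 higher and 4 lower unadjusted), beside 1.16% and 0.128%. Isg15 was the farthest from sham, at 0.73 ± 0.23 on day 14 (adjusted p = 0.47).

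At 3 months the contralateral hemisphere lay below sham for most of the genes. On day 14, 25 were lower and 2 higher, beside 28.4% and 10.4% of all genes, with a median of -0.34 against -0.06. On day 3, 30 were lower and 0 higher (limma, 0 higher at an unadjusted p under 0.05), beside 37.2% and 14.4%, with a median of -0.51 against -0.10. After quantile normalization of the arrays, 15 were lower and 1 higher on day 14, and 26 lower and 4 higher on day 3, so the count depends on the scaling. Of the calls, 12 of 27 on day 14 and 23 of 30 on day 3 held in every alternative fit. Mx2 read 6.56, 5.71 and 5.72 on the contralateral arrays of day 14 and 5.92, 5.84 and 5.92 on those of day 3, against 7.05, 7.54 and 7.10 in sham, and was lower by 1.23 ± 0.22 on day 14 and 1.34 ± 0.22 on day 3. Mx1 read 5.07, 4.88 and 5.12 on day 14 and 5.34, 5.21 and 4.86 on day 3, against 6.15, 6.50 and 5.86 in sham, and was lower by 1.15 ± 0.21 and 1.03 ± 0.21. Ifit3 read 5.38, 5.95 and 5.69 on day 14 and 5.38, 4.93 and 5.45 on day 3, against 6.85, 6.85 and 5.98 in sham, and was lower by 0.89 ± 0.22 and 1.31 ± 0.22. For these 3 genes all contralateral arrays of both days lay below all sham arrays. Usp18 was lower by at least 0.23 on day 14 and 0.22 on day 3 (-1.13 ± 0.18 and -1.30 ± 0.18 as fitted), with no contralateral array above the 30th percentile. Eif2ak2 read 7.06, 7.00 and 7.15 on day 14 and 6.92, 6.82 and 6.89 on day 3, against 7.91, 7.96 and 7.79 in sham. Oasl2 read 7.12, 6.13 and 6.52 and 6.35, 6.16 and 6.40, against 7.47, 7.60 and 7.04, and Ifih1 6.77, 6.87 and 6.76 and 6.49, 6.24 and 6.41, against 7.46, 7.64 and 7.35. Of these, Eif2ak2 stood at -0.82 ± 0.08 and -1.01 ± 0.08, Oasl2 at -0.77 ± 0.18 and -1.06 ± 0.18, and Ifih1 at -0.68 ± 0.11 and -1.10 ± 0.11, each called on both days. Eif2ak2 and Ifih1 lay below all sham arrays on both days, and Oasl2 did so on day 3. Higher than sham were Ifitm3 (0.44 ± 0.12) and Irf1 (0.38 ± 0.12) on day 14.

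The injured hemisphere of 3-month rats was set against the same sham arrays. On day 14, 10 were higher and 11 lower than in sham, beside 11.0% and 23.4% of all genes. On day 3, 10 were higher and 24 lower, beside 20.9% and 35.9%. As shares of the 46 genes, the 11 lower on day 14 and the 10 higher on day 3 lay close to those of all genes. With the arrays quantile normalized, 16 were higher and 5 lower on day 14, where the median over the 46 genes was 0.08 instead of -0.02, and 10 higher and 18 lower on day 3. Irf1, lower than sham on day 3 by 0.33 ± 0.12, stood at 0.028 in that setting. Ifitm1 (3.39 ± 0.41), Lgals3bp (1.78 ± 0.13), Oas1a (1.17 ± 0.16), Mx1 (1.10 ± 0.21), Ifitm3 (0.93 ± 0.12), Irf7 (0.92 ± 0.14) and Zbp1 (0.81 ± 0.13) were higher than sham on day 14. Mx2 (0.47 ± 0.22), Usp18 (0.34 ± 0.18), Isg15 (0.08 ± 0.23) and Ifit3 (-0.15 ± 0.22) were not called against sham on that day (adjusted p = 0.095, 0.15, 0.83 and 0.64). Oasl2 (-1.08 ± 0.18), Herc6 (-0.59 ± 0.14), Trim21 (-0.55 ± 0.11), Ifi47 (-0.55 ± 0.12), Lgals9 (-0.42 ± 0.15) and Ifih1 (-0.39 ± 0.11) were lower. On day 3 the lowest against sham were Herc6 (-1.40 ± 0.14), Ifih1 (-0.94 ± 0.11), Oasl2 (-0.86 ± 0.18), Eif2ak2 (-0.81 ± 0.08) and Mx2 (-0.79 ± 0.22), while Ifitm1 (4.08 ± 0.41), Lgals3bp (1.36 ± 0.13), Gbp2 (0.68 ± 0.15) and Gbp5 (0.57 ± 0.11) were higher. The ipsilateral and contralateral comparisons with sham share the sham arrays, and both days share them too.

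**Figure D4:**
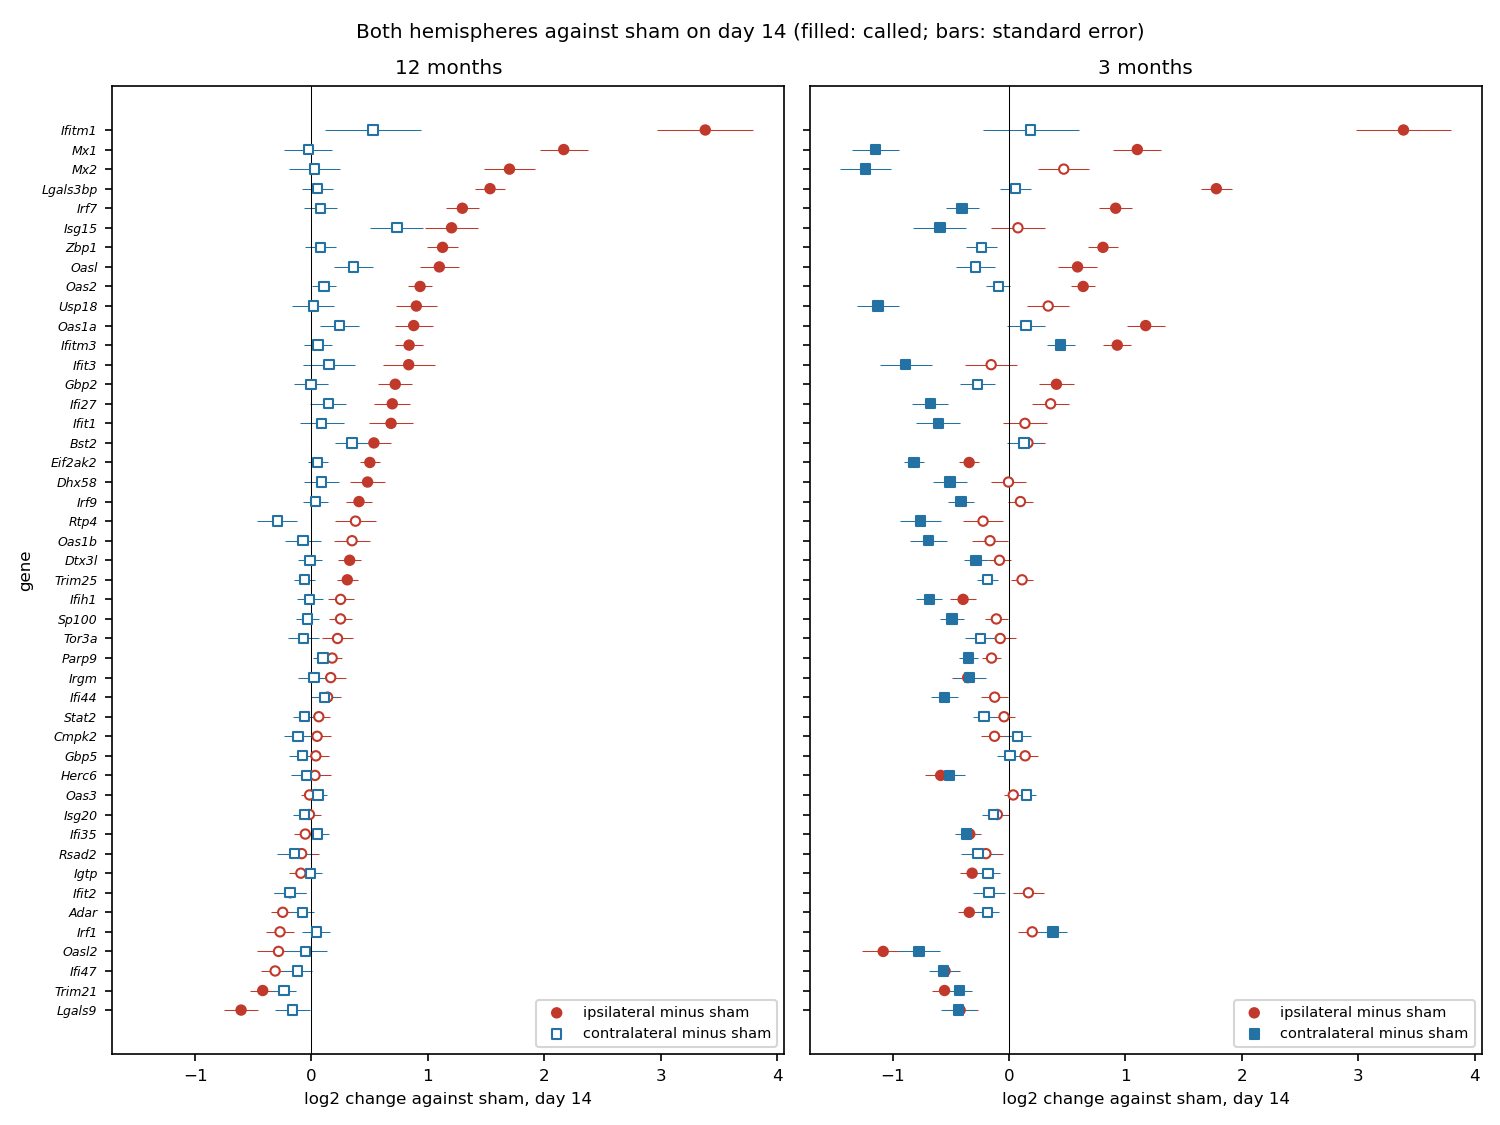
Log2 change against sham on day 14 for the 46 genes, ordered by the change at 12 months, in the ipsilateral (red circles) and contralateral (blue squares) hemisphere at 12 months (left) and 3 months (right); filled symbols passed the test and bars are standard errors. At 12 months the contralateral symbols are all open, with Isg15 at 0.73 the farthest out, and at 3 months most contralateral symbols lie left of 0, with Mx1, Mx2 and Usp18 (as fitted) among the farthest.

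The ages were also compared in sham, where the code number moves with age. Of the 46 genes 1 was higher at 12 months and 13 were lower, beside 7.47% and 5.52% of all genes, with a median of -0.18 against 0.01. Lgals3bp was higher by 0.60 ± 0.13 (adjusted p = 0.0029), with 8.14, 7.97 and 7.97 on the 12-month and 7.38, 7.59 and 7.31 on the 3-month sham arrays. Mx2 was lower by 1.08 ± 0.22 (adjusted p = 0.0013), without overlap of its arrays. Isg15 (-0.94 ± 0.23), Mx1 (-0.83 ± 0.21), Oasl (-0.60 ± 0.17), Rtp4 (-0.57 ± 0.17) and Ifit1 (-0.57 ± 0.19) were lower as well. Isg15 shows how this rests on single arrays, with 5.63, 5.89 and 6.23 at 12 months and 7.03, 7.44 and 6.09 at 3 months, where replicate 2 of the 3-month sham group was the highest. The count of called genes was 14, and it was 4 without that array, 7 without 3-month sham replicate 1 and 6 without 12-month sham replicate 2. After quantile normalization of the arrays, 2 were higher and 9 lower. Eif2ak2 (-0.54 ± 0.08), Parp9 (-0.35 ± 0.08), Mx2 and Lgals3bp held in every alternative fit.

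Genes that make, receive or pass on the interferon signal, from a list of 43 of which 29 were tested, were read in the same comparisons. In the injured against the opposite hemisphere 3 rose and 4 fell at 12 months and day 14, or 10.3% and 13.8%, beside 10.9% and 5.94% of all genes. At 12 months and day 3 the counts were 7 and 7 (24.1% each), beside 18.7% and 10.0%. In 3-month rats 5 rose and 0 fell on day 14 (17.2% higher, while an unadjusted p under 0.05 in limma gave 2 lower), beside 13.2% and 7.09%, and 5 rose and 5 fell on day 3 (17.2% each), beside 11.5% and 8.95%. Among the interferons, Ifnb1 lay at or below the 30th percentile on all 30 arrays and was not tested, Ifng did so on 19 and Ifnk on 23. Ifna4 and Ifna5 were called in none of the 4 comparisons. The receptor chain Ifnar1 rose on day 3, by 0.44 ± 0.12 at 12 months and 0.36 ± 0.12 at 3 months, and stood at 0.14 and 0.15 on day 14. Ifngr1, a chain of the interferon gamma receptor, fell at 12 months on days 14 (-0.28 ± 0.08) and 3 (-0.29 ± 0.08) and at 3 months on day 3 (-0.34 ± 0.08), while Ifngr2 rose by 0.26 ± 0.10 at 12 months and day 3 and by 0.31 ± 0.10 at 3 months and day 14.

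Stat3, a transducer shared by many cytokines, rose in all 4 comparisons, by 0.58 ± 0.11 and 0.62 ± 0.11 on day 14 and by 0.57 ± 0.11 and 0.57 ± 0.11 on day 3 at 12 and 3 months. Ikbke, a kinase that activates Irf3 and Irf7, rose by 0.53 ± 0.14 and 0.42 ± 0.14 on day 14 and by 0.49 ± 0.14 and 0.43 ± 0.14 on day 3. The factors Irf2, Irf3 and Irf5 fell on day 3 at both ages and were not called on day 14. Irf3, which starts interferon beta transcription, stood at -0.36 ± 0.11 at 12 months and -0.47 ± 0.11 at 3 months on day 3, and at 0.01 and 0.26 on day 14. Irf5 fell by 0.47 ± 0.09 and 0.42 ± 0.09 on day 3 and Irf2 by 0.44 ± 0.11 and 0.35 ± 0.11, at 12 and 3 months. The endosomal receptor Tlr3, a sensor of double-stranded RNA, fell by 0.47 ± 0.13 at 12 months and day 14, by 0.55 ± 0.13 at 12 months and day 3 and by 0.47 ± 0.13 at 3 months and day 3. Tlr7 (-0.40 ± 0.10) and Myd88 (-0.28 ± 0.08) fell at 12 months and day 14, and Tlr9 (-0.37 ± 0.10) at 12 months and day 3. Trex1, an exonuclease that clears cytosolic DNA, rose on day 3 by 0.47 ± 0.13 and 0.55 ± 0.13, and Socs3, an inhibitor of cytokine signalling, by 0.82 ± 0.14 and 0.55 ± 0.14, at 12 and 3 months. Jak2 (0.54 ± 0.10) and Il10rb (0.73 ± 0.11) rose at 3 months and day 14, and Ptpn11 at 12 months on days 14 (0.27 ± 0.08) and 3 (0.43 ± 0.08). Ifnk was called lower at 12 months and day 3, by at least 0.065, with no ipsilateral array above the 30th percentile. Tyk2, Cgas and Sting1 were not analysed here.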

How the data were processed

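Microglia of 10 groups of 3 rats' samples were measured on 1-colour Affymetrix Rat Gene ST arrays. The deposited table holds log2 values that the authors made with RMA in Affymetrix Expression Console, per the submitters' processing notes. RMA corrects background, normalizes quantiles and summarises probe sets. Versions are not given in the sources used here. RMA pulls arrays toward 1 distribution and compresses low values, so a difference near the floor can understate a change. The deposited arrays still differed in spread, with an SD of 1.79 to 1.93 on the 3-month stroke arrays and 1.94 to 2.05 on all others. Whether all 30 were normalized together was not tested. The 30 columns hold 29214 probe sets with values of 2.18 to 13.68. The number of arrays limits the precision. The strain labels conflict, and the labels do not say whether the samples of a group came from separate preparations, so p-values measure the spread between these samples.

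Probe sets were named through the platform annotation with symbols updated through RefSeq (GRCr8): 15310 had 1 symbol, 323 several and 13581 were not listed. Probe sets above their array's 30th percentile (4.07 to 4.35) on at least 3 arrays were kept (22343), then 1 per gene, the one with the highest mean. A model of group means over all 30 arrays was fitted with limma 3.58.1 (lmFit and eBayes) in R 4.3.3, with Benjamini-Hochberg adjustment over 11675 genes, for 21 comparisons. Where all 3 arrays of a group lay at or below the 30th percentile, a difference is given as at least the distance to that percentile, or not at all where the other group does not exceed it. Differences of differences have no such bound and are as fitted, as are all values in the figures. The model was checked on simulated data. Arrays of 1 group correlated at 0.9865 to 0.9953, and no 2 arrays held identical values.

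The sample codes tie ipsilateral and contralateral samples with 1 replicate number to 1 animal (12 pairs), so that the animal was added as a block, fixed or random, as an alternative. The correlation of paired deviations from the group means was -0.08 to 0.21, and the estimated within-animal correlation 0.072. The other alternatives were quantile normalization, median centring, array weights, trended and robust eBayes, no filter and a stricter filter. Further ones were the mean over a gene's probe sets, fewer arrays in the fit, and leaving out each array. The stricter filter used the 50th percentile on at least 3 arrays, which Usp18, Oas2, Oas1b, Rsad2 and Cmpk2 did not pass. A call of these genes is said to hold where it held in all the fits that included them. All members may be named. Array values are given for the called members with the largest changes, up to 6 upwards and 3 downwards between hemispheres, up to 6 per direction in the other comparisons, and pathway genes are named where called. Members and lists were chosen with earlier results of these data known.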

Additional observations from a re-analysis of the deposited data

Results flagged for a closer look

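The difference between the hemispheres was tested for a change between day 14 and day 3, and 13 of these tests in the 46 genes passed at an adjusted p under 0.05 in limma. At 12 months the effect on day 14 exceeded that on day 3 by 1.11 for Irf7, 1.10 for Mx1, 0.68 for Herc6, 0.62 for Zbp1 and 0.48 for Oas2, on the log2 scale. For Lgals9 the effect was smaller on day 14, with a difference of -0.90. At 3 months the effect on day 14 exceeded that on day 3 by 1.30 for Mx1, 1.15 for Mx2, 1.12 for Usp18, 0.85 for Ifi27, 0.83 for Irf7, 0.56 for Irf9 and 0.53 for Oas2. The 3-month values of Usp18 and Oas2 are as fitted and are no measured sizes: no array exceeded the 30th percentile in 3 of the 4 groups for Usp18 and in both contralateral groups for Oas2.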

How the results depend on the processing

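Each count of called genes and each gene's change was recomputed under the alternatives. Of 966 pairs of a gene and a comparison, 878 kept direction and side of the threshold after quantile normalization of the arrays, 931 after centring on the array median, 918 with array weights, 912 with the compared arrays alone and 954 with trended and robust eBayes. The number was 960 with the mean over probe sets, 958 with no filter and 961 with the animal as a random block. With the stricter filter it was 856 of the 861 pairs that could be fitted. Direction turned for 2 pairs, both after quantile normalization: Irf1 in the ipsilateral hemisphere against sham at 3 months and day 3 (0.028, against -0.33) and Irf9 in the contralateral hemisphere against sham at 3 months and day 3 (0.077, against -0.32). The cause was not tested.

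After quantile normalization the number of genes called was 16, against 27, in the contralateral hemisphere against sham at 3 months and day 14, 3, against 5, between the days in the contralateral hemisphere at 3 months, and 3, against 6, for the effect between the days at 12 months. The contralateral count between the days at 3 months was also 3 after centring, 2 with array weights, 0 with the compared arrays alone and 1 with arrays of 1 age. The count for the effect between the days at 3 months was 4, against 7, with array weights and with the compared arrays alone. With array weights 1, against 0, was called in the contralateral hemisphere against sham at 12 months and day 3, and 24, against 14, between the ages in sham. Leaving out 1 array at a time gave 4 to 16 called between the ages in sham, 3 to 8 and 2 to 5 for the effect between the days at 3 and 12 months, 2 to 7 between the days in the contralateral hemisphere at 3 months, and 10 to 14 between the days in the ipsilateral hemisphere at 12 months, against 18.

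With the animal as a fixed replicate block, the counts between the hemispheres were 24 and 18 at 12 months on days 14 and 3 and 24 and 18 at 3 months, against 21, 16, 24 and 17. With the animal as a random replicate block they were 24 and 17, and 24 and 17. For the effect between the days the fixed block gave 5 and 7 at 12 and 3 months and the random block 6 and 8, against 6 and 7.

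The main limits are 3 arrays per group and the code number that moves with group at 3 months. Probe sets near the 30th percentile, for which no fold is measured, are another. So is the monocyte and macrophage signal of the injured hemisphere, which lay above the opposite one on both days and was highest on day 3.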
